A study of Xenopus laevis with 12 samples.

Results

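The 3 genes described here are c1qtnf9b.L (NCBI Gene 495187), adh7.S (446738) and cltrn.L (379678), out of 37018 gene rows counted in whole brains of Xenopus laevis tadpoles. They were picked by symbol after earlier results of these data had shown them to be near absent from control brains and present after thioridazine. The difference between exposed and control brains chose them, so it is described below and not tested. That description held in 5 of the 6 exposed libraries. For cltrn.L it held less well, since each control had 4 to 12 reads. In replicate 1 of the NF 47 thioridazine group the genes had 0, 0 and 10 reads, which lies within the range of the controls.

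The series holds 12 RNA-seq libraries in 4 groups of 3, which are thioridazine and control brains at Nieuwkoop and Faber (NF) stage 45, and thioridazine and control brains at NF 47. Thioridazine is an antipsychotic drug of the phenothiazine class that acts on dopamine receptors. Exposed embryos had 90 µM of it in the medium between NF 14 and NF 26, at 18 °C and with 50 embryos in 10 mL, and the exposure ended well before the stages at which brains were taken. Controls, titled wild type, shared the temperatures and, like the exposed embryos, were kept at 14 °C outside that window. Titles of the exposed samples speak of brain abnormalities caused by the drug. The labels give neither the number of brains in a library nor the clutch, so p-values measure only the spread between these samples.

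C1qtnf9b belongs to the C1q and TNF related proteins, secreted relatives of adiponectin that pair a collagen stretch with a globular C1q domain. Adh7 is a class IV alcohol dehydrogenase, which in mammals oxidises retinol and ethanol and is best known from stomach and upper digestive epithelium. Cltrn encodes collectrin, a membrane protein which in mammals carries amino acid transporters such as Slc6a19 to the surface of kidney proximal tubule cells. None of these genes is a usual marker of neurons or glia. Xenopus laevis is allotetraploid, and .L and .S mark the copies of a gene on its paired subgenomes. Reads may have been split between similar copies or family members in counting, and the library kit named in the labels does not mark strand, so values of single copies are uncertain by an unknown amount. The gene table lists c1qtnf9b.L as a long noncoding RNA although its symbol is that of a protein family. The symbols c1qtnf9b.S, adh7.L and cltrn.S matched no row used here, and the gene table gives adh7.L as a synonym of adh7.S, so L and S copies could not be compared.

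Library totals ran from 12843954 to 18164871 reads. Neuron markers were high in every library, at a summed 3532 to 5235 CPM (counts scaled to library size by TMM). Both NF 45 libraries numbered 2 stood apart on the first principal component, at 118 for thioridazine and 104 for control, against -56.2 to 9.60 for the other 10 libraries. Control replicate 3 at NF 45 carried digestive tissue and lens transcripts. Its liver markers summed to 2083 CPM, against 576 to 653 CPM in the thioridazine libraries and 599 and 603 CPM in the other controls of that stage. Among these markers the row rbp4.S alone had a mean of 556 CPM in thioridazine and 595 CPM in control brains at NF 45. Exocrine pancreas markers of control replicate 3 summed to 171 CPM, against 4.17 to 5.91 CPM in the thioridazine libraries. Its lens markers summed to 48.3 CPM, against 4.91 to 5.47 CPM in the thioridazine libraries. In bulk RNA of a whole brain, a change in the number of cells of a type and a change in RNA per cell cannot be told apart.

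The row c1qtnf9b.L was nearly without reads in controls at both stages. At NF 45 it had 98, 278 and 44 reads in thioridazine replicates 1, 2 and 3, against 3, 1 and 0 reads in the controls. These are 7.43, 15.5 and 2.60 CPM in exposed brains and 0.217, 0.0623 and 0 CPM in control brains. All exposed libraries of this stage lay above all controls, as in 2.28% of the 34117 rows with a read, and replicate 2 was the highest. The means were 8.51 ± 6.52 CPM for thioridazine and 0.0932 ± 0.112 CPM for control (SD, n = 3 each). At NF 47 it had 0, 11 and 45 reads in thioridazine brains, against 0, 0 and 2 reads in controls. Here the groups overlapped, because thioridazine replicate 1 had no read. A count of 0 in that library of 15787961 reads allows a level of up to 0.190 CPM (3 counts), which is counting error only. The NF 47 means were 1.29 ± 1.58 CPM for thioridazine and 0.0469 ± 0.0812 CPM for control (SD, n = 3 each).

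Summed over the 3 libraries of a group and scaled to the read totals, c1qtnf9b.L was 91.3 times as abundant in thioridazine brains at NF 45 (420 against 4 reads). The 95% exact binomial interval of that ratio was 35.4 to 337. At NF 47 the ratio was 29.4 (56 against 2 reads, interval 7.77 to 249). These intervals cover counting error only and not the spread between libraries. The log2 fold change fitted by edgeR was 6.39 ± 1.44 at NF 45 and 4.63 ± 1.65 at NF 47 (± standard error of the fit, here and below). Without both NF 45 libraries numbered 2, the NF 45 value was 5.39.

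The dehydrogenase gene adh7.S had 35, 170 and 63 reads in thioridazine replicates 1, 2 and 3 at NF 45, against 1, 2 and 7 reads in controls. In CPM these are 2.65, 9.48 and 3.73 in exposed brains and 0.0724, 0.125 and 0.539 in control brains. The groups did not overlap, replicate 2 was again the highest exposed library, and the highest control was replicate 3, the library with liver and pancreas transcripts. The means were 5.29 ± 3.67 CPM for thioridazine and 0.245 ± 0.256 CPM for control (SD, n = 3 each). At NF 47 the exposed brains had 0, 46 and 16 reads, and none of the controls had a read. Replicate 1 of the exposed group was therefore level with the controls.

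The summed ratio of adh7.S was 23.3 at NF 45 (268 against 10 reads, interval 12.5 to 49.1). At NF 47 it was at least 21.7-fold higher in summed thioridazine reads, with 62 reads against a floor of 3 counts over the control group. That bound covers counting error only, since exposed replicate 1 had 0 reads and replicate 2 had 46 of the 62. The fitted log2 fold change at NF 45 was 4.43 ± 1.31. It was 3.39 without both NF 45 libraries numbered 2 and 5.62 without control replicate 3 of that stage.

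Collectrin, cltrn.L, was low but never absent in controls. At NF 45 it had 29, 231 and 76 reads in thioridazine replicates 1, 2 and 3, against 7, 7 and 12 reads in controls. The CPM values were 2.20, 12.9 and 4.49 in exposed brains and 0.507, 0.436 and 0.924 in control brains. Every exposed library of this stage exceeded every control, with replicate 2 on top. The means were 6.53 ± 5.62 CPM for thioridazine and 0.622 ± 0.264 CPM for control (SD, n = 3 each). At NF 47 it had 10, 54 and 24 reads in thioridazine brains, against 10, 4 and 4 reads in controls. The 10 reads of exposed replicate 1 match the 10 of control replicate 1, at 0.641 and 0.597 CPM. The NF 47 means were 2.07 ± 1.69 CPM for thioridazine and 0.381 ± 0.188 CPM for control (SD, n = 3 each).

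The summed ratio of cltrn.L was 11.2 at NF 45 (336 against 26 reads, interval 7.53 to 17.4) and 5.13 at NF 47 (88 against 18 reads, interval 3.07 to 9.06). The fitted log2 fold change was 3.39 ± 0.77 at NF 45 and 2.39 ± 0.80 at NF 47. It was 2.25 at NF 45 without both libraries numbered 2, and 3.31 at NF 47 without both libraries numbered 1.

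**Figure D1:**
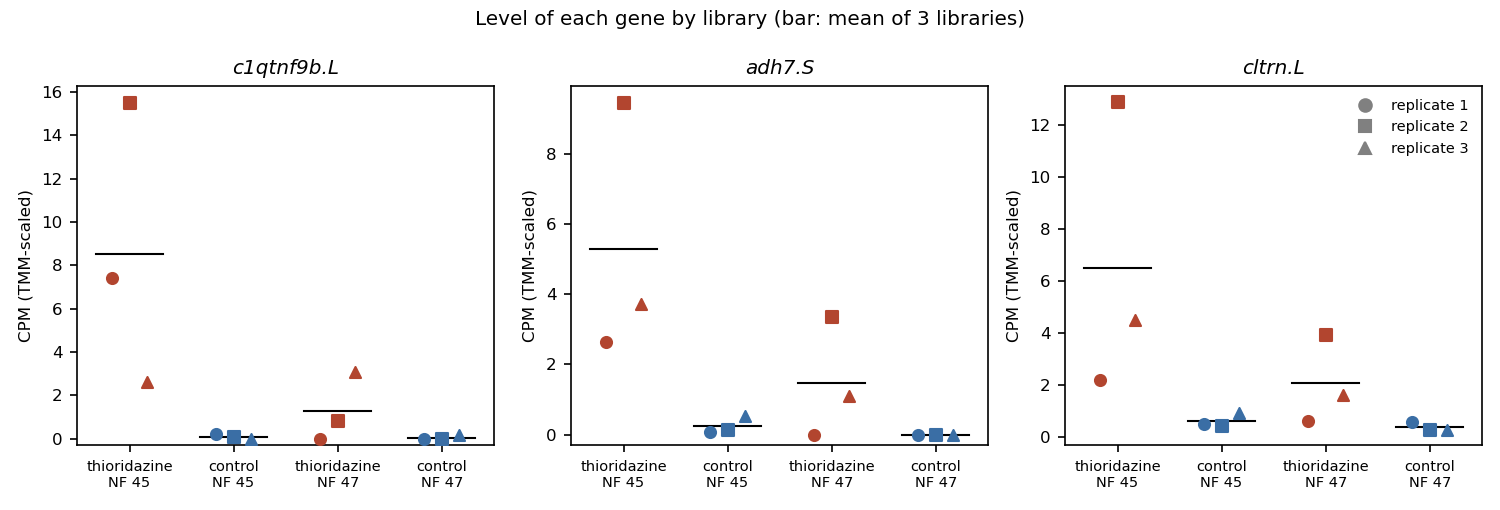
Level of each gene by library, in TMM-scaled CPM on a linear axis, for thioridazine and control brains at NF 45 and NF 47. Points are libraries, with marker shape giving the replicate number, and bars are means of 3. Replicate 2 is the highest thioridazine library at NF 45 for each gene (15.5, 9.48 and 12.9 CPM), and thioridazine replicate 1 at NF 47 sits among the controls.

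The plot of levels by library shows the same order of libraries in the 3 genes only in part. At NF 45 replicate 2 led in each. At NF 47 replicate 3 led for c1qtnf9b.L, and replicate 2 led for adh7.S and cltrn.L. Paired by replicate number, the difference in log2 CPM (prior count 2) of c1qtnf9b.L was 4.43, 6.33 and 4.37 in the NF 45 pairs 1, 2 and 3, and 0.00, 2.82 and 3.55 in the NF 47 pairs. For adh7.S it was 3.76, 5.22 and 2.52 at NF 45 and 0.00, 4.72 and 3.20 at NF 47. For cltrn.L it was 1.87, 4.52 and 2.13 at NF 45 and 0.08, 3.36 and 2.09 at NF 47. Pair 1 at NF 47 showed next to no difference in any of the 3 genes.

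Full separation at NF 45 was also seen in the reverse direction, with all 3 controls above all 3 thioridazine libraries in 1.78% of rows. At NF 47, 3.62% of rows had every exposed library above every control in CPM and 3.22% had the reverse. By this rule c1qtnf9b.L and adh7.S did not separate at NF 47. Cltrn.L did so narrowly, at 0.641 CPM in thioridazine replicate 1 against 0.597 CPM in control replicate 1. Over both stages, 30 rows (0.0879%) had all 6 exposed libraries above all 6 controls, and 10 rows (0.0293%) had the reverse. None of the 3 genes is among the 30. Ordered by the gap between the lowest exposed and the highest control library, the 30 began with LOC108706335, which had 1 to 3 reads in exposed brains and none in controls. Next came epx.L, with 462 to 700 reads in exposed brains and 167 to 380 in controls. With 5 of 6 exposed libraries required in place of 6, a rule chosen after the values were seen, 171 rows (0.501%) qualified, against 102 (0.299%) in reverse. By the size of the gap c1qtnf9b.L then ranked 1, adh7.S 4 and cltrn.L 6. With all 6 exposed libraries required, the same gap ranked them 30720, 34670 and 10317 among 37018 rows. The genes were chosen for this difference, and the looser rule leaves out their lowest exposed library. The high ranks therefore follow from these choices and are no further evidence.

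Rows with at most 3 reads in each of the 6 controls and at least 10 reads in any exposed library numbered 43, and 25 of these reached 10 reads only in thioridazine replicate 2 at NF 45. The reverse pattern had 140 rows, of which 137 reached 10 reads only in control replicate 3 at NF 45. The 1 row of the 43 with at least 10 reads in 5 of 6 exposed libraries was c1qtnf9b.L. That gene was chosen for such a pattern, so its place there is no further evidence. The other pair of genes fell outside this pattern, since adh7.S had up to 7 reads and cltrn.L up to 12 reads in a control.

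Levels at both stages are set side by side within exposed brains as a description. The genes were chosen for their presence in exposed brains, and c1qtnf9b.L and adh7.S passed the filter on low counts through the NF 45 exposed libraries, so no test of the stage difference is given for them. The fitted level was lower at NF 47 than at NF 45 for each gene, but exposed libraries of both stages overlapped. The highest NF 47 library had 3.06 CPM of c1qtnf9b.L, 3.35 of adh7.S and 3.94 of cltrn.L. The lowest NF 45 library had 2.60, 2.65 and 2.20 CPM. For c1qtnf9b.L the means were 1.29 CPM at NF 47 and 8.51 CPM at NF 45, and the log2 difference was -2.72 ± 1.07. For adh7.S the means were 1.48 CPM at NF 47 and 5.29 CPM at NF 45, with a log2 difference of -1.85 ± 1.08. For cltrn.L they were 2.07 CPM at NF 47 and 6.53 CPM at NF 45, with -1.67 ± 0.69. In this contrast edgeR called 0 of 26570 rows (0%), with 2560 at an unadjusted p under 0.05. DESeq2 called 278 of 13692 rows (2.03%). Leaving out thioridazine replicate 2 at NF 45 brought the differences to -1.93 for c1qtnf9b.L, -1.11 for adh7.S and -0.69 for cltrn.L. Leaving out thioridazine replicate 3 at NF 47 gave -4.41 for c1qtnf9b.L, and leaving out replicate 2 there gave -3.25 for adh7.S.

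The rows most like each gene over the 12 libraries were found by the Pearson correlation of log2 CPM, given as a description. The libraries share depth, stage and exposure, so a high value need not reflect more than the difference that chose the genes. Adh7.S and cltrn.L were close to each other (r = 0.959), and c1qtnf9b.L was less so, at 0.881 with adh7.S and 0.849 with cltrn.L. The rows nearest to adh7.S were slc23a1.L (0.988), slc5a9.L (0.981), fcn2l.L (0.975), slc34a3.L (0.973) and XB5870707.S (0.969). Those nearest to cltrn.L were slc34a3.L (0.979), LOC495407 (0.973), fcn2l.L (0.960), slc23a1.L (0.959) and adh7.S itself. In mammals Slc23a1 takes up vitamin C, Slc34a3 takes up phosphate and Slc5a9 takes up sugars, each in epithelia such as kidney tubule.

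These transporter rows had the same low and high libraries as adh7.S and cltrn.L. They were picked by correlation over these same libraries, so the shared order follows from the choice and is no further evidence. The phosphate transporter slc34a3.L had 17, 201 and 92 reads in thioridazine replicates 1, 2 and 3 at NF 45, against 1, 3 and 7 reads in controls. At NF 47 it had 2, 82 and 23 reads in thioridazine brains, against 2, 0 and 0 reads in controls. The vitamin C transporter slc23a1.L had 47, 246 and 88 reads in thioridazine brains at NF 45, against 1, 1 and 14 reads in controls. At NF 47 it had 0, 46 and 19 reads in thioridazine brains, against 2, 0 and 0 reads in controls. Thioridazine replicate 1 at NF 47 was again level with the controls. The sugar transporter slc5a9.L had 92, 461 and 148 reads in thioridazine brains at NF 45, against 2, 0 and 19 reads in controls, and 0, 66 and 20 reads in thioridazine brains at NF 47, against 1, 1 and 0 reads in controls.

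The nearest rows to c1qtnf9b.L were dtl.S (0.921), slc7a7.L (0.885), fcn2l.L (0.885), susd3.L (0.882) and adh7.S (0.881). Of these, fcn2l.L was also near adh7.S and cltrn.L, and adh7.S was also near cltrn.L. Dtl is a substrate receptor of a ubiquitin ligase that acts in DNA replication. The row dtl.S had 142, 208 and 186 reads in thioridazine brains at NF 45, against 127, 132 and 108 reads in controls. The amino acid transporter row slc7a7.L had 163, 251 and 207 reads in thioridazine brains at NF 45, against 105, 133 and 118 reads in controls. The rows dtl.S and slc7a7.L had over 100 reads in every library, unlike c1qtnf9b.L.

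**Figure D2:**
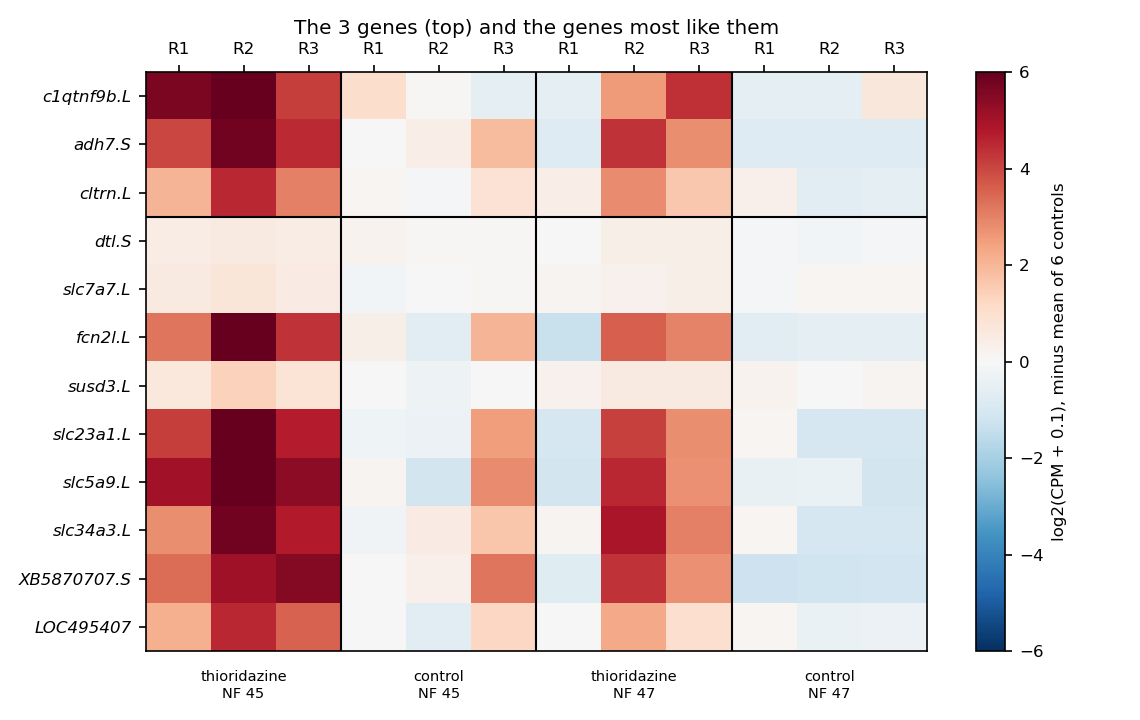
Level of the 3 genes (top) and of the rows most like them in each library, as log2(CPM + 0.1) minus the mean of the 6 controls. Columns are replicates R1 to R3 of thioridazine and control brains at NF 45 and NF 47. The color scale ends at 6, and slc5a9.L, slc34a3.L and slc23a1.L share with adh7.S a dark column at thioridazine R2 of NF 45 and a pale one at thioridazine R1 of NF 47. Rows were picked by correlation over these libraries, so the shared columns follow from the choice.

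Families and partners of the genes were taken from lists written with earlier results known. In the contrast of thioridazine with control averaged over both stages, edgeR called 0 of 26570 rows (0%), with 783 at an unadjusted p under 0.05. Fitted with the same-numbered libraries of a stage as blocks, it called 25 rows (0.0941%), and DESeq2 called 29 of 26729 rows (0.108%). The median log2 difference of all rows was -0.00, and 13121 of 26570 were positive.

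Relatives of c1qtnf9b.L did not share its pattern. The C1q and TNF related list held 28 tested rows, c1qtnf9b.L included, of which 17 had a positive log2 difference, and its median was 0.07. Emilin1.L, an extracellular matrix glycoprotein with a C1q domain, had 0.33 ± 0.10, and c1qtnf4.L had -0.36 ± 0.11 (edgeR, adjusted p = 0.99992 for both). The 12 rows for adiponectin receptors and their relatives, among them receptors through which this protein family is thought to act in mammals, included 3 positive values, with a median of -0.05. The receptor rows adipor2.S and adipor2.L had -0.21 ± 0.14 and -0.21 ± 0.18, and paqr4.S had -0.24 ± 0.18 (edgeR, adjusted p = 0.99992 for each).

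Of 7 alcohol dehydrogenase rows, 4 had enough reads to be tested, adh7.S included, and 3 were positive with a median of 0.67. The widely expressed class III enzyme adh5.L had 565 to 1115 reads in thioridazine brains and 618 to 809 reads in controls, with a log2 difference of 0.05 ± 0.14 (edgeR, adjusted p = 0.99992). The row adh1c.S resembled adh7.S in exposed brains, with 22, 157 and 39 reads at NF 45 and 1, 28 and 9 reads at NF 47. Its controls had 1, 0 and 346 reads at NF 45 and 2, 1 and 0 reads at NF 47. The single high control was again replicate 3 at NF 45, and the log2 difference was 1.29 ± 1.66 (edgeR, adjusted p = 0.99992). Without that control all 4 tested rows were positive, with a median of 2.64. A median of 4 rows lies midway between the middle rows, here unlike each other, so neither median describes a row. The row adh7.S, chosen for this difference, is 1 of the 4.

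Of 54 tested rows of the retinoid pathway, in which alcohol dehydrogenases convert retinol to retinaldehyde, 36 were positive and the median was 0.08. Cyp26b1.L, which breaks down retinoic acid, had -0.40 ± 0.10, the retinol uptake receptor stra6.L had 0.37 ± 0.13 and the visual cycle isomerase rpe65.S had 0.26 ± 0.10 (edgeR, adjusted p = 0.99992 for each).

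Of 21 tested rows for collectrin's partners and regulators, 15 were positive and the median was 0.07. Most positive was slc6a19.S, a copy of the neutral amino acid transporter that collectrin accompanies in mammals. It had 23, 150 and 32 reads in thioridazine brains at NF 45, against 0, 2 and 7 reads in controls, and 1, 21 and 2 reads in thioridazine brains at NF 47, against 2, 0 and 0 reads in controls. Its log2 difference was 3.83 ± 1.01, that of slc6a19.L was 1.07 ± 0.35 and that of slc7a7.L was 0.42 ± 0.10 (edgeR, adjusted p = 0.99992 for each).

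**Figure D3:**
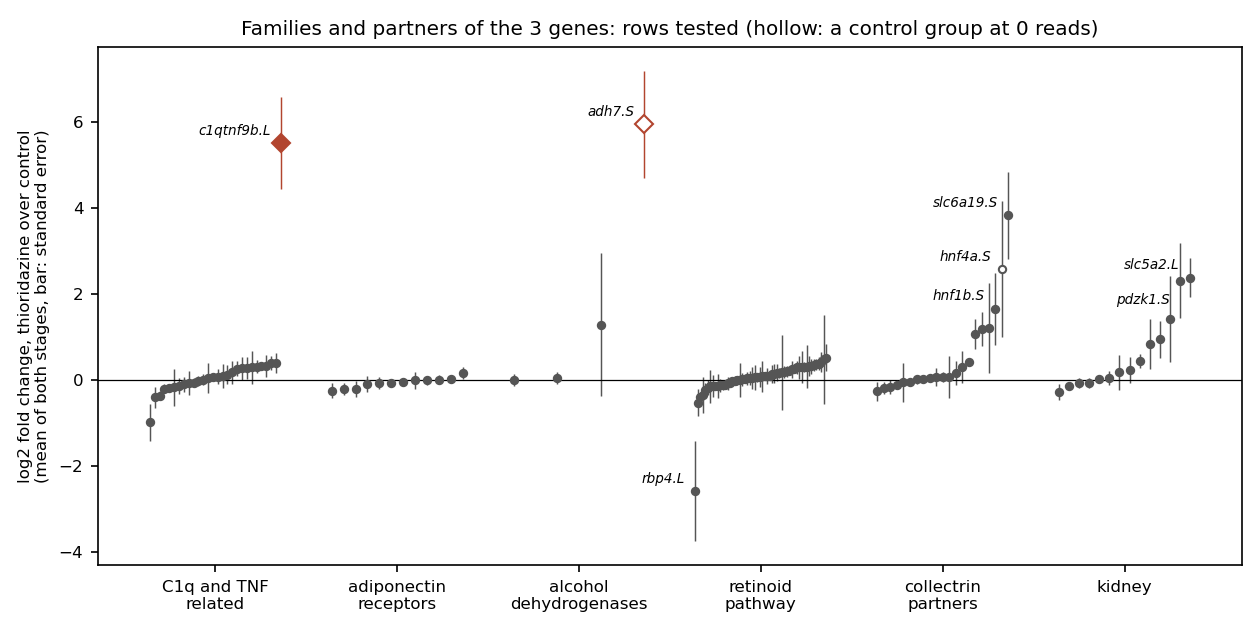
Log2 difference of thioridazine over control, averaged over both stages, for each tested row of 6 gene lists, sorted within a list, with standard errors as bars. Diamonds are c1qtnf9b.L and adh7.S, and hollow symbols have a control group at 0 reads, so that their height depends on the fit and is no measured fold. Beside c1qtnf9b.L the C1q and TNF related rows lie near 0 (median 0.07), and slc6a19.S stands out among collectrin partners at 3.83.

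Markers of kidney were examined because collectrin and the transporters above are known from that organ. The kidney list held 19 rows, of which 14 were tested. Of these, 10 were positive and 4 negative, with a median of 0.21. Without both NF 45 libraries numbered 2, 9 of the 14 were positive, with a median of 0.05. At NF 45 alone, 5 of the 14 were then positive, with a median of -0.12. The summed level of the list was 221 to 304 CPM in thioridazine and 239 to 263 CPM in control brains at NF 45. At NF 47 it was 272 to 292 CPM in thioridazine and 258 to 281 CPM in control brains. The collecting duct water channel row aqp2.L was at 0 in every library. The sugar transporter slc5a2.L, a proximal tubule marker, was picked from the list after its values were seen. It had 13, 124 and 65 reads in thioridazine brains at NF 45, against 7, 6 and 9 reads in controls. At NF 47 it had 8, 12 and 12 reads in thioridazine brains, against 3, 3 and 3 reads in controls. Exposed libraries of each stage thus lay above its controls, as in 2.28% of rows at NF 45 and 3.62% at NF 47. The log2 difference of 2.38 ± 0.45 did not pass the test (edgeR, adjusted p = 0.808, or 0.0835 with the replicate block). As the row was chosen on its values, these p-values are a description only.

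A list of kidney tubule transporters and enzymes was then written after the values were seen, so it is a description only. Of its 27 rows 21 were tested, 19 were positive and the median log2 difference was 1.66, or 1.21 with hnf4a.S, which had no read in NF 47 controls, set at its bound. Without both NF 45 libraries numbered 2, 16 of 21 were positive with a median of 0.82. The glucose transporter row slc2a2.L alone held most of the reads in every library. Over all 27 rows the sums were 171, 440 and 186 CPM in thioridazine replicates 1, 2 and 3 at NF 45, against 177, 254 and 163 CPM in controls. At NF 47 they were 191, 278 and 181 CPM in thioridazine brains, against 197, 258 and 214 CPM in controls, and the groups overlapped at both stages. With slc2a2.L taken out after its values were seen, the other 26 rows summed to 64.5, 206 and 91.5 CPM in thioridazine replicates 1, 2 and 3 at NF 45, against 33.7, 25.3 and 55.1 CPM in controls. At NF 47 these 26 rows summed to 26.4, 63.1 and 41.0 CPM in thioridazine brains, against 27.9, 29.6 and 31.4 CPM in controls. The sums without slc2a2.L put the exposed libraries in the same order within each stage as adh7.S and cltrn.L did. Thioridazine replicate 1 at NF 47 then lay below every control of its stage. Over all 27 rows the NF 47 order differed, with replicate 1 above replicate 3. Both the list and the row taken out were chosen after the values were seen, so the shared order is no further evidence. Miox.L, whose enzyme opens the ring of myo-inositol, was picked from this list after its values were seen and is no further evidence. At NF 45 it had 35, 396 and 167 reads in thioridazine brains, against 3, 1 and 31 reads in controls. The part of kidney transcripts in the levels of the 3 genes was not tested.

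**Figure D4:**
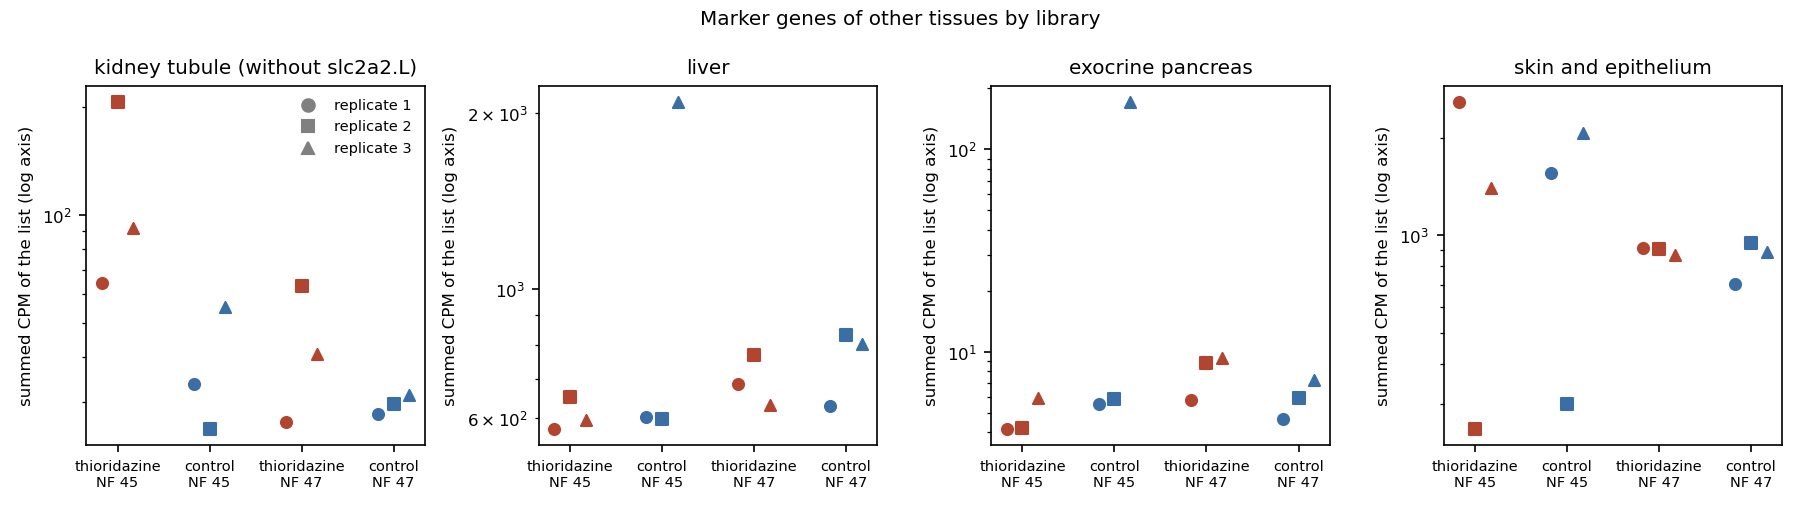
Summed CPM of marker lists by library, on log axes, for kidney tubule (26 rows, without slc2a2.L), liver, exocrine pancreas, and skin and epithelium. Points are libraries, with shape giving the replicate number. The liver sums include rbp4.S. Kidney tubule rows are highest in thioridazine replicate 2 at NF 45 (206 CPM), and liver and exocrine pancreas rows in control replicate 3 at NF 45 (2083 and 171 CPM).

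Muscle markers were also highest in thioridazine replicate 2 at NF 45. They summed to 1333, 5218 and 1010 CPM in thioridazine replicates 1, 2 and 3 at that stage, against 950, 3665 and 1902 CPM in controls, so both libraries numbered 2 were high. Over both stages 22 of 24 tested muscle rows were positive, with a median log2 difference of 0.44. At NF 47 alone 23 were positive, with a median of 0.70. Without both NF 45 libraries numbered 2, 21 of 24 were positive over both stages. At NF 45 alone, 4 of 24 were then positive, with a median of -0.22. Endothelium markers summed to 43.7, 90.5 and 45.4 CPM in thioridazine brains at NF 45, against 51.0, 80.6 and 55.9 CPM in controls, with the same libraries high. The part of these tissues in the levels of the 3 genes was not tested.

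Skin markers were not high in thioridazine replicate 2 at NF 45, as the plot of marker lists shows. Skin and epithelium markers summed to 253 CPM in thioridazine and 302 CPM in control among the NF 45 libraries numbered 2, whereas the other libraries of that stage had 1395 and 2569 CPM in thioridazine and 1554 and 2063 CPM in control brains. Both libraries numbered 2 were thus low in skin markers, the exposed and the control one. The part of skin tissue in the levels of the 3 genes was not tested. Stomach and gut markers, a setting in which Adh7 is known in mammals, summed to 5.99, 2.96 and 2.42 CPM in thioridazine replicates 1, 2 and 3 at NF 45. Control replicates 1, 2 and 3 of that stage had 2.17, 1.43 and 183 CPM. Each exposed library thus lay above control replicates 1 and 2. At NF 47 stomach and gut markers summed to 2.58 to 3.46 CPM in thioridazine and 2.39 to 3.52 CPM in control brains. Only 1 of the 20 rows of this list had enough reads to be tested. The part of gut tissue in the levels of the 3 genes was not tested. Over the 20 marker lists other than kidney and the families above, median log2 differences averaged over both stages ran between -0.97 for liver and 0.58 for pigment cells and retina. The liver value rested on control replicate 3 at NF 45. Without that library the liver median was 0.02, with 9 of 15 rows positive, and that of pigment cells and retina was 0.94.

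Neighbours in gene order were compared to see whether a stretch of chromosome moved together. All 10 neighbours of c1qtnf9b.L, from shisa2.L to LOC108708721, had log2 differences between -0.24 and 0.18. The row adh7.S lies beside LOC398377, LOC108706741 and adh1a.S. Its tested neighbours had log2 differences between -1.03 for LOC398377 and 0.11 for h2az1.S. At NF 45 LOC398377 had 20, 5 and 105 reads in control replicates 1, 2 and 3. At NF 45 LOC108706741 had 30, 1 and 133 reads in thioridazine brains, against 25, 3 and 558 reads in controls, so this neighbour was highest in control replicate 3 and not where adh7.S was. The tested neighbours of cltrn.L, from pir.L to LOC108707924, had log2 differences between -0.03 and 0.28. All of them come before cltrn.L in gene order, so the stretch after it was not compared. No tested neighbour passed the edgeR test.

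**Figure D5:**
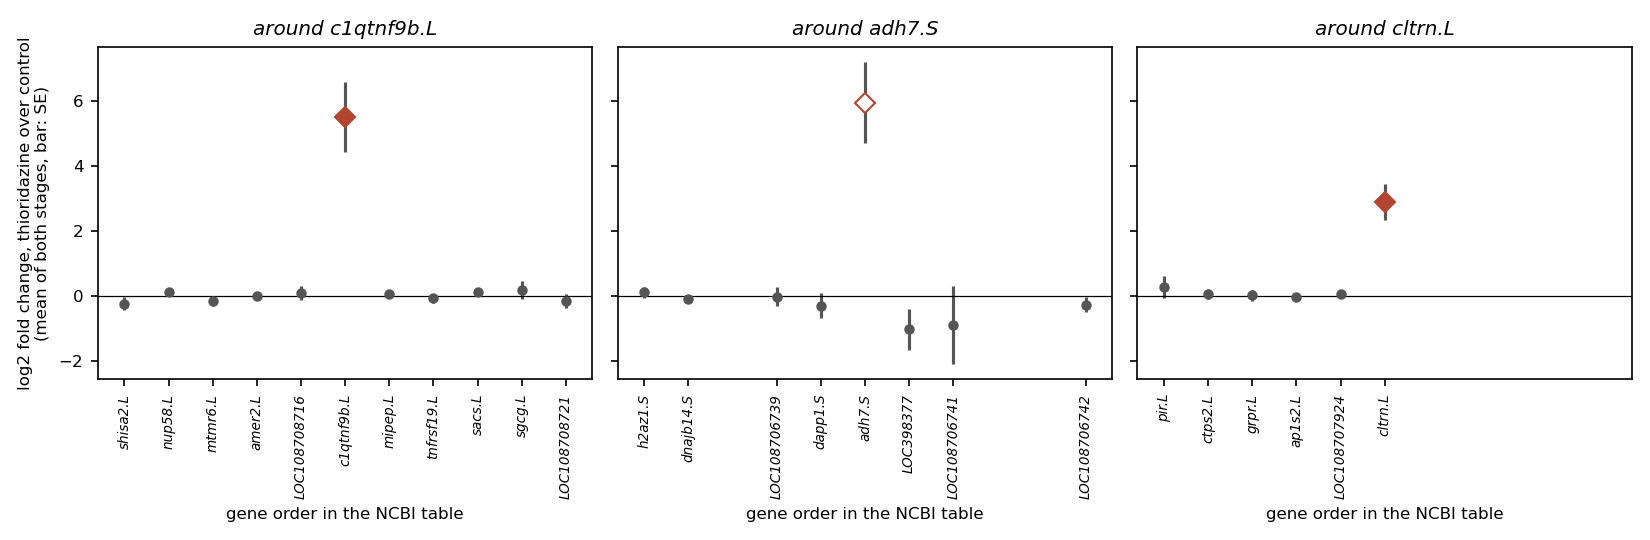
Log2 difference of thioridazine over control, averaged over both stages, for each gene (diamond) and its tested neighbours in the order of the NCBI gene table, with standard errors as bars. The hollow diamond of adh7.S rests on a control group at 0 reads. The neighbours of c1qtnf9b.L lie between -0.24 and 0.18, and those of cltrn.L all come before it in gene order.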

How the data were processed

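Per the labels, whole-brain RNA was sequenced from 12 libraries as single-end reads of 100 bp. The files deposited by the authors hold raw counts, as whole numbers for 37018 NCBI Gene numbers in each library, with no normalization. Trimmomatic, HISAT2, HTSeq and DESeq2 are named in the submitters' processing notes. Their versions and settings, the build, the annotation and the handling of multiply matching reads are not given in the sources used here. An NCBI gene table of a later assembly named 33597 numbers, which held 99.33% of reads, and gave gene order. No coordinates were used.

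EdgeR 4.0.16 in R 4.3.3 was used for the counts. Its filterByExpr function kept 26570 rows, and TMM scaling and 1 robust quasi-likelihood fit of the 12 libraries as 4 group means followed. Benjamini-Hochberg adjustment ran over all tested rows, and an adjusted p under 0.05 was called. The standard error is the size of the log2 fold change divided by the square root of F. DESeq2 1.42.0, limma 3.58.1 (voom with quality weights), median-ratio scaling, no filter, a replicate block and left-out libraries were alternatives.

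The 3 genes and all lists were chosen with earlier results of these data known. Further genes were named by rule, as list members that were called or had the 3 smallest p, the 5 most correlated rows per gene, and the rows with the largest gaps over the 12 libraries, of which 2 are given. The neighbours, miox.L, slc5a2.L, hnf4a.S, slc2a2.L, rbp4.S and aqp2.L fall outside it and were chosen after their values were seen.

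Same-numbered libraries deviated together within each stage (Pearson r 0.575, 0.845 and 0.449 at NF 45, and 0.291, 0.318 and 0.540 at NF 47). Libraries of unlike number were not compared, and the labels do not say that the numbers pair libraries. Whether they do is therefore not known, and the replicate block is an alternative only. In simulated counts of 26570 rows, the contrast over both stages recovered 73% of rows changed by a log2 fold of 1 and 86% of those changed by 2, with 14 false calls. The stage contrast in thioridazine recovered 40% and 80%, with 4 false calls. These counts were drawn independently around 1 mean per row, without outlying libraries or tissue carried into a library. The shares recovered may therefore not hold for the real libraries. Between replicates, the chi-square per gene was 6.91 to 52.8, so they differed by more than sampling noise.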

Additional observations from a re-analysis of the deposited data

How the results depend on the processing

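In the stage contrast within thioridazine, the lower NF 47 level of the 3 genes kept its sign in every alternative that gave a value. Exposed libraries of both stages overlapped for each gene, so this is a description only. Leaving out 1 library gave -4.41 to -1.93 for c1qtnf9b.L, -3.25 to -1.11 for adh7.S and -2.49 to -0.69 for cltrn.L. Limma-voom gave -5.06, -4.36 and -1.64. The replicate number as a block gave -3.05, -2.28 and -1.62. The cause of these shifts was not tested.

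Counts of called rows moved between tools. DESeq2 called 9 rows at NF 45, 29 over both stages and 278 in the stage contrast, and limma-voom called 1 in the stage contrast. The replicate block called 6 at NF 45, 1 at NF 47, 25 over both stages and 1 in the stage contrast. Without both NF 45 libraries numbered 2, 3 rows were called in the stage contrast, and with the block 3 at NF 47 and 15 over both stages. Without both NF 47 libraries numbered 1 and with the block, 5 were called at NF 45 and 12 over both stages. Leaving out 1 library gave 0 in the treatment contrasts and 0 to 1 in the stage contrast, 1 without control replicate 1 or 3 at NF 45. The cause was not tested.

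Settings without libraries numbered 1 at NF 47, or with the block and a library pair left out, were chosen after seeing the data. Other copies of the 3 genes gave no value. With few reads in controls and 3 libraries a group, folds of the 3 genes depend on single libraries.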
